A study of Mus musculus with 12 samples.

Results

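Gene expression in the organ of Corti of Clrn2-/- mice was compared with that of wild-type mice, and the genes that differed were described by function. The 3 Clrn2-/- and 3 wild-type libraries were found by their genotype labels and make up 6 of the 12 samples of the series, which also holds 3 Clrn1-/- and 3 Clrn1-/-Clrn2-/- samples. Clrn2-/- mice were homozygous for the clarinet allele, a nonsense mutation (p.Trp4*) by which clarin-2 is lost throughout the body and from the embryo on. The double mutants carried it too and were bred from Clrn1-/- and Clrn2-/- mice. All mice were 21 days old, and the tissue was the organ of Corti after removal of the stria vascularis and the modiolus. The wild-type mice were bred separately from the mutants, so genotype and breeding cannot be told apart in any comparison with them. Mice of at least 2 litters were used per genotype, but nothing states how many went into a library, and p-values then measure the spread between these libraries.

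Clarin-2 is a membrane protein with several transmembrane segments and belongs to the same small family as clarin-1, the protein lost in Usher syndrome type III. Hair cells of the organ of Corti carry a bundle of actin-filled stereocilia, which opens mechanically gated ion channels when it is deflected, and inner hair cells pass the signal to spiral ganglion neurons at ribbon synapses. Outer hair cells amplify the vibration and touch the tectorial membrane with their tallest stereocilia. Supporting cells surround the hair cells, hold them in place and clear potassium. In bulk tissue such as this, fewer cells of a type and less RNA per cell cannot be told apart.

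Each library held 32513371 to 37423717 counts on genes in Clrn2-/- and 35978049 to 41049302 in wild-type mice, and levels are given below as CPM, counts scaled to an equal library total (with TMM factors) and not corrected for gene length. Libraries of a genotype differed by more than counting alone, with a variance of 11.8 times that of counting in Clrn2-/- and 9.68 times in wild-type mice. Defining markers of hair cells (Myo7a, Otof, Slc26a5), supporting cells (Sox2, Gjb2) and neurons (Nefl, Tubb3) were present in every library.

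The Clrn2 gene lies on chromosome 5 on the plus strand, and its start codon is in exon 1 (chr5:45453751-45454063, GRCm38). The first 30 coding bases (chr5:45453811-45453840) are shown because they hold codon 4, the tryptophan codon hit by the clarinet mutation, which is in capitals:
Clrn2: atgcctggaTGGttcaaaaaggtgtggtac
Clrn2 RNA was measured at 3.03, 1.89 and 3.24 CPM in wild-type and at 1.26, 1.38 and 1.04 CPM in Clrn2-/- libraries. All 3 Clrn2-/- libraries lay below the lowest wild-type library, a log2 fold change of -1.15 ± 0.21 (SE; edgeR adjusted p = 0.0015). The level was just as low where Clrn1 was deleted, with means of 0.916 CPM in Clrn1-/- and 1.079 CPM in Clrn1-/-Clrn2-/- mice, and Clrn2-/- and Clrn1-/- libraries did not pass a direct test (log2 difference 0.41, adjusted p = 0.25). Clrn2 RNA was thus low in all 3 mutants and cannot check the clarinet label by itself. Its paralog Clrn1 was at 25.004, 23.8 and 28.6 CPM in wild-type and at 31.5, 25.8 and 29.1 CPM in Clrn2-/- libraries, ranges that overlap (adjusted p = 0.31), whereas Clrn1-/- libraries averaged 2.83 CPM.

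Of 19052 genes tested, 236 were over-expressed in Clrn2-/- mice (1.24%) and 271 were under-expressed (1.42%) where both an adjusted p up to 0.05 and a 1.5-fold change were required. These terms are used below for genes that met both limits, 2.66% of the genes in all. "Rose" and "fell" are used for the adjusted p alone, which 1360 genes passed upwards (7.14%) and 1347 downwards (7.07%). Most changes were small: the median was 1.89-fold among over-expressed and 1.86-fold among under-expressed genes, and 106 and 112 of them reached 2-fold. Proteins were encoded by 176 of the over-expressed and 174 of the under-expressed genes. The libraries of both genotypes did not overlap for 233 of the 236 over-expressed genes and 269 of the 271 under-expressed ones. Among all tested genes, 14.6% had every Clrn2-/- library above and 14.4% every Clrn2-/- library below those of wild-type mice. Without Clrn2-/- replicate 3 the counts were 163 and 206.

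**Figure D1:**
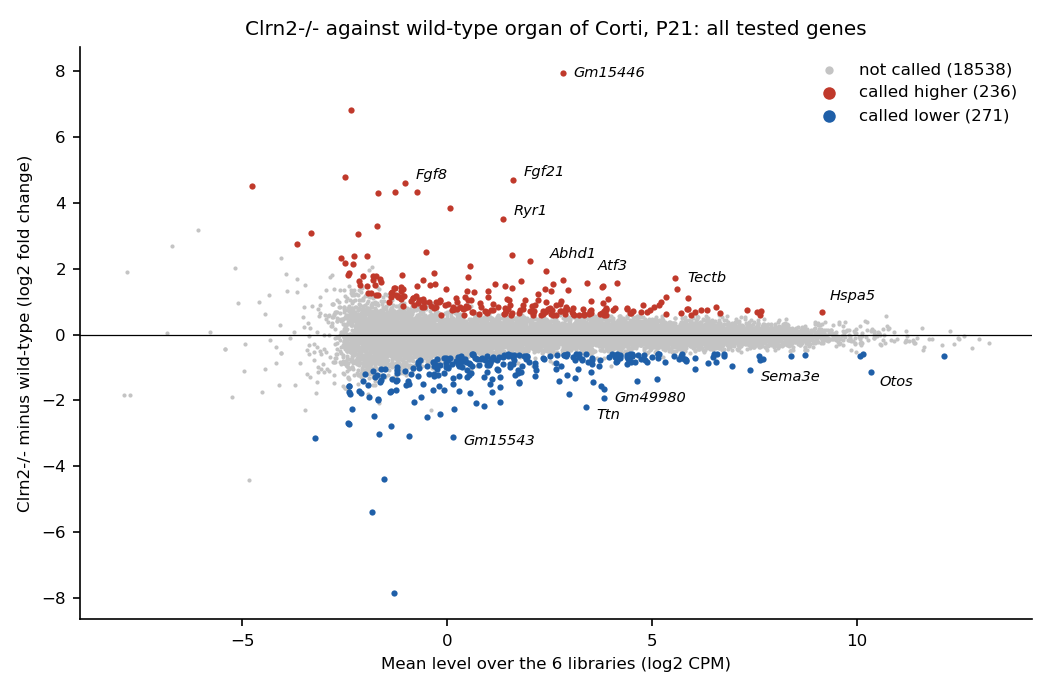
Log2 fold change of Clrn2-/- over wild-type mice (vertical axis) against the mean level over the 6 libraries (log2 CPM, horizontal axis), 1 point per gene. Over-expressed genes (236) are red, under-expressed genes (271) blue, other genes grey, and 7 tested genes without a count in these 6 libraries are not drawn. Gm15446 stands far above all other genes of its level, and Otos, Sema3e and Hspa5 are among the abundant genes that changed.

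The largest increase among genes of at least 1 CPM was that of Gm15446, a gene of chromosome 5 (chr5:109923400-109943936, GRCm38). It had 0.0562, 0.0274 and 0.0759 CPM in wild-type and 12.5, 15.4 and 14.6 CPM in Clrn2-/- libraries, a log2 fold change of 7.95 ± 0.23 (adjusted p = 6.3e-12). It was nearly absent only from wild-type libraries, since Clrn1-/- and Clrn1-/-Clrn2-/- mice averaged 10.9995 and 3.64 CPM. Fgf21, which encodes a fibroblast growth factor secreted under metabolic stress, followed with 0.169, 0.301 and 0.202 CPM against 6.16, 4.93 and 6.52 CPM (log2 fold change 4.69 ± 0.35). Ryr1, the calcium release channel best known from skeletal muscle, was at 0.309, 0.520 and 0.405 CPM in wild-type and at 4.30, 4.04 and 5.90 CPM in Clrn2-/- libraries. Its log2 fold change was 3.52 ± 0.21 (adjusted p = 1.2e-07). None of the libraries overlapped for these genes. Saa1, Sprr1a, Gm42858, Gm13782, Gm9195, Fosb, Abhd1, Ly6g6c and Sdr16c5 made up the rest of the 12 largest increases, with log2 fold changes of 4.33 (Saa1) down to 1.76 (Sdr16c5). Of these, Fosb was not called without Clrn2-/- replicate 3 (log2 fold change 1.10) or without wild-type replicate 1 (1.99) or 2 (1.79), nor with limma-voom (1.88, adjusted p = 0.11) or the 2 genotypes alone (2.09, adjusted p = 0.052).

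Among the decreases, Ttn, the gene of the giant sarcomere protein titin, combined a large change with a clear level. It fell from 18.3, 17.8 and 15.8 CPM to 4.09, 3.15 and 4.07 CPM (log2 fold change -2.19 ± 0.10, adjusted p = 4.1e-09). Gm49980 was at 22.3, 22.1 and 22.9 CPM in wild-type and at 6.59, 5.11 and 5.93 CPM in Clrn2-/- libraries (-1.93 ± 0.08). Clrn1-/- mice averaged 25.96 CPM for it, and the direct test of Clrn2-/- against Clrn1-/- gave a log2 difference of -2.14 ± 0.08 (adjusted p = 4.2e-11). Perm1, a regulator of mitochondrial genes in muscle, was at 3.60, 3.97 and 4.25 CPM against 0.861, 1.04 and 0.927 CPM (-2.06 ± 0.18). Its call was lost with unstranded counts (-0.39). Bglap3, of the osteocalcin family, was at 13.4, 11.2 and 12.2 CPM against 3.74, 3.03 and 3.77 CPM (-1.80 ± 0.16). The other 8 of the 12 largest decreases were Gm15543, Pinlyp, Msantd1, Gm31848, Tmem233, Olfr12, Gm9844 and Mir670hg, between -3.10 (Gm15543) and -1.79 (Mir670hg) on the log2 scale, all below 4 CPM in every library. Gene symbols that start with Gm stand for predicted genes without an assigned function.

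Genes of the integrated stress response were higher in Clrn2-/- mice. In this response, phosphorylation of the translation factor eIF2 slows protein synthesis but lets the transcription factor ATF4 be made, and ATF4 then induces genes of amino acid uptake and synthesis, tRNA charging and, with its partners, cell death. Of 54 tested members, 30 rose, 1 fell and 23 did not pass, and the median log2 fold change was 0.26 against -0.0025 over all tested genes. Over-expressed members numbered 7 (background 1.24%), namely Fgf21, Chac1, Atf3, Gdf15, Cdsn, Mthfd2 and Pycr1, and Cebpb was under-expressed. Chac1, which encodes a glutathione-degrading enzyme, was at 2.75, 3.64 and 3.85 CPM in wild-type and at 11.97, 10.7 and 9.47 CPM in Clrn2-/- libraries (log2 fold change 1.65 ± 0.15, adjusted p = 4.4e-06). Atf3, a transcription factor induced by ATF4, was at 7.47, 6.25 and 8.35 CPM against 18.6, 22.8 and 19.1 CPM (1.45 ± 0.10). Mthfd2, a mitochondrial enzyme of one-carbon metabolism, went from 24.6, 25.5 and 25.7 CPM to 51.7, 45.0 and 44.0 CPM (0.89 ± 0.07). For each of these genes every Clrn2-/- library lay above every wild-type library.

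Other members of the stress response list rose by less than 1.5-fold or did not pass. Asns, asparagine synthetase, was at 77.2, 76.2 and 84.8 CPM against 132, 115 and 110 CPM (log2 fold change 0.58). Ddit3, the gene of the death-linked factor CHOP, was at 14.9, 15.0 and 15.5 CPM against 21.9, 20.5 and 19.6 CPM (0.45), and Atf4 itself at 139, 130 and 141 CPM against 183, 175 and 169 CPM (0.36). Trib3, a pseudokinase that restrains ATF4, had a log2 fold change of 0.54. Some aminoacyl-tRNA synthetase genes rose slightly, such as Cars (0.50), Yars (0.33), Nars (0.30) and Sars (0.28). The synthetase genes Wars (0.01) and Eprs (-0.01) and the cystine transporter gene Slc7a11 (0.02) did not pass. Ppp1r15a, whose product ends the response, was at 0.07. Slc1a4, a neutral amino acid transporter gene from the separate list of transporters, was over-expressed at 21.2, 24.8 and 22.6 CPM against 41.3, 40.2 and 34.5 CPM (0.76 ± 0.07). The calls of Gdf15 and Cdsn were less firm. Gdf15 was lost without any single one of 5 of the 6 libraries, with log2 fold changes of 0.90 (without Clrn2-/- replicate 3) to 1.12 (without wild-type replicate 2). Cdsn was lost without Clrn2-/- replicate 3 (0.86) or wild-type replicate 2 (0.78), and Cebpb without Clrn2-/- replicate 3 (-0.58).

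ATF4 and its partners bind the amino acid response element, here searched as TGATGNAA on both strands, in promoters of 300 bases from RefSeq (GRCm38.p6). Of the 236 over-expressed genes 154 had a promoter in the table, and 11 of these held the element (7.14%), as did 5 of 164 under-expressed genes (3.05%), 2.82% of the tested genes with a promoter and 3.97% of all promoters. On the stress response list 18 of 43 genes held it (41.9%), a list that partly consists of genes known for this element. The over-expressed genes with it were Gm15446, Fgf21, Gm36377, Chac1, Atf3, Chrna1, Pycr1, Slc15a5, Hrk, Slc1a4 and Slitrk6. The promoters of the 3 stress response genes with the largest change are shown, each from 250 bases before a RefSeq start site, which can lie inside the gene. They are printed in the orientation of the gene, with the element in capitals:
Fgf21 promoter, chr7:45615441-45615740, minus strand: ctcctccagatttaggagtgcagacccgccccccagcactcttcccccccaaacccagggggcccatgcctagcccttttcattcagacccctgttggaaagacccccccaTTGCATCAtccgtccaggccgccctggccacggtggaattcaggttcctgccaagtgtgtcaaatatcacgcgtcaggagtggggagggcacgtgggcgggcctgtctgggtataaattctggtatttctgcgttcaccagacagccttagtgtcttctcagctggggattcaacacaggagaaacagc
Chac1 promoter, chr2:119350992-119351291, plus strand: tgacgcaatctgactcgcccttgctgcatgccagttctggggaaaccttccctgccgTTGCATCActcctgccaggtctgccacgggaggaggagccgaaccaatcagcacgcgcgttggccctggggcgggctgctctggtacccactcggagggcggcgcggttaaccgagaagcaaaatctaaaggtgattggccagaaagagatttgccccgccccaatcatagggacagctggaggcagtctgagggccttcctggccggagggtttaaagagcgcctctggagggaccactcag
Atf3 promoter, chr1:191183284-191183583, minus strand: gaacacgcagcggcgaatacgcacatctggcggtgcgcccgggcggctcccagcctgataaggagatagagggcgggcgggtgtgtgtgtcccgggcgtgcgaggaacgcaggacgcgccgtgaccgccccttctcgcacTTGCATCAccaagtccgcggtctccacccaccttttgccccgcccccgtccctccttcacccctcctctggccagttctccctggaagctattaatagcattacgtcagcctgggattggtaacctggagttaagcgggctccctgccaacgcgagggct
The element started 139 bases before the start in Fgf21, 193 in Chac1 and 110 in Atf3, and in all 3 promoters its letters were TTGCATCA, the same element read on the other strand. A match shows letters only and not binding. The AP-1 site TGANTCA was in 13.0% of the promoters of over-expressed genes, 6.71% of those of under-expressed genes, 6.65% of those of tested genes and 7.81% of all promoters. In the same order, the E-box CACGTG was in 5.84%, 8.54%, 10.9% and 7.15%, the interferon-stimulated element GAAANNGAA in 8.44%, 11%, 8.64% and 8.56%, and the D-box TTATGNAA in 3.25%, 3.66%, 2.71% and 3.38%. No element contains another.

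Genes of protein folding in the endoplasmic reticulum were higher in Clrn2-/- mice. They are induced by the unfolded protein response, in which sensors of the reticulum raise the supply of chaperones. Of 28 tested members 18 rose and 0 fell, and the median log2 fold change was 0.24. Over-expressed were Sdf2l1, Derl3 and Hspa5, 3 of 28 members. Sdf2l1, a cofactor of chaperones, was at 19.2, 19.6 and 18.6 CPM against 35.3, 41.5 and 31.1 CPM (0.91 ± 0.11, adjusted p = 8.0e-05). Hspa5, which encodes the main chaperone BiP, was at 415, 483 and 399.9 CPM against 656, 789 and 622 CPM (0.67 ± 0.09), and stood below 1.5-fold without Clrn2-/- replicate 2 (0.56). Xbp1, the transcription factor of the response, rose from 108, 113 and 105 CPM to 133, 151 and 128 CPM (0.34), and Calr, calreticulin, had a log2 fold change of 0.36. The sensor genes Atf6 (0.03) and Ern1 (-0.02) did not pass.

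**Figure D2:**
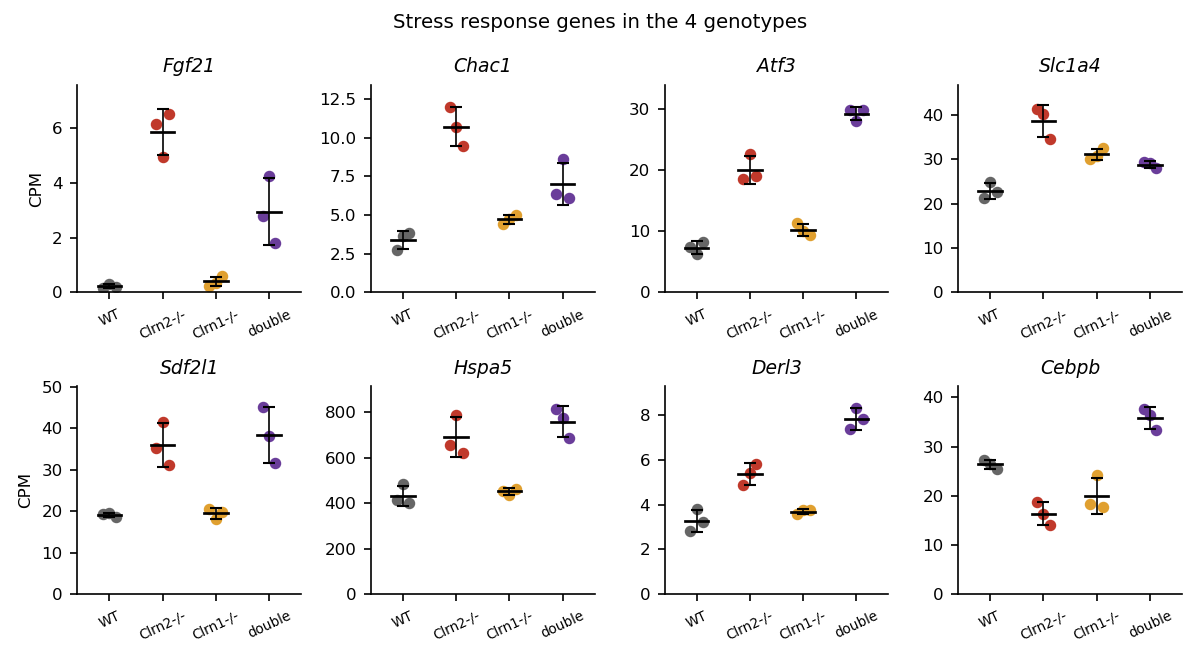
Level in CPM (vertical axis, from 0) of 8 genes in wild-type (WT), Clrn2-/-, Clrn1-/- and Clrn1-/-Clrn2-/- (double) mice, with 1 point per library and the mean ± SD (n = 3) in black. Fgf21, Chac1, Atf3, Sdf2l1 and Hspa5 are higher in Clrn2-/- than in Clrn1-/- libraries, and Cebpb is lower in Clrn2-/- than in wild-type libraries.

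Of 19 tested members of the BCL2 family, which holds regulators both for and against apoptosis, 9 rose, 0 fell and 10 did not pass, with a median log2 fold change of 0.22. The 4 over-expressed members, Bcl2l11 (Bim), Hrk, Bbc3 (Puma) and Pmaip1 (Noxa), all encode BH3-only proteins, which trigger apoptosis by binding other members. Bcl2l11 was at 20.1, 20.2 and 20.2 CPM in wild-type and at 32.1, 32.4 and 32.7 CPM in Clrn2-/- libraries (0.69 ± 0.05, adjusted p = 6.3e-07). Hrk was at 8.77, 11.97 and 11.3 CPM against 18.4, 18.5 and 18.7 CPM (0.79 ± 0.10), and Bbc3 at 2.36, 2.82 and 2.30 CPM against 4.84, 4.41 and 4.72 CPM (0.90 ± 0.13). Pmaip1 stayed below 1 CPM and was lost without Clrn2-/- replicate 2 (1.14) or 3 (1.13) or wild-type replicate 1 (1.09) or 3 (0.83). The others that rose were Bok (0.55), Bcl2l14 (0.41), Bmf (0.26) and the survival genes Bcl2l2 (0.22) and Mcl1 (0.14). The effector genes Bax (0.08) and Bak1 (0.04) did not pass.

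Immediate-early genes, which respond within minutes to stimuli that include dissection, were in part higher. Of 33 members 13 rose, 2 fell and 18 did not pass (median 0.22). Fos was at 5.20, 4.68 and 3.67 CPM against 8.39, 8.51 and 10.4 CPM (1.02 ± 0.17), and Jun, of the same AP-1 complex, at 124, 122 and 130 CPM against 196, 191 and 161 CPM (0.55). Fosl1 was over-expressed below 1 CPM, and Socs3, a brake on cytokine signalling, was at 5.34, 5.42 and 4.78 CPM against 7.42, 8.17 and 9.89 CPM (0.71). Arc (-0.32), Dusp1 (-0.10) and Nr4a1 (0.05) did not pass, and Klf2 (-0.40) and Srf (-0.20) fell. The part of tissue handling in the stress and immediate-early results was not tested.

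**Figure D3:**
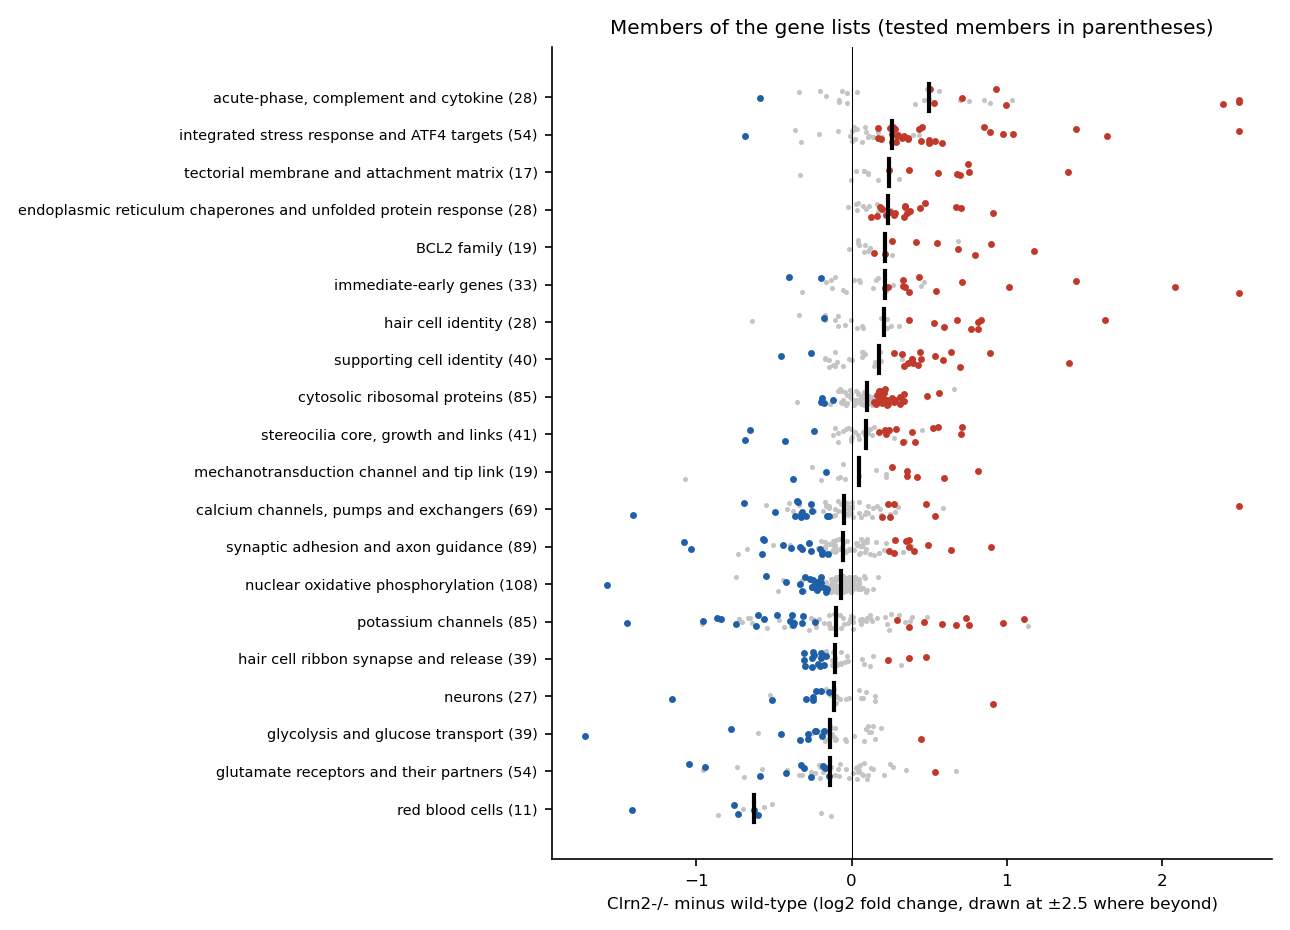
Log2 fold change of Clrn2-/- over wild-type mice (horizontal axis) for the tested members of 20 gene lists, 1 point per gene, with the number of members in parentheses and a black bar at the median. Red points rose, blue points fell (edgeR adjusted p of at most 0.05) and grey points did not pass. Stress response and endoplasmic reticulum lists lie mostly to the right, and ribbon synapse, neuron and red blood cell lists mostly to the left.

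Part of the genes of the tectorial membrane, the extracellular sheet that lies over the hair bundles, were higher in Clrn2-/- mice. Of 17 members 8 rose, 0 fell and 9 did not pass, and the median log2 fold change was 0.24. Tectb, which encodes the major noncollagenous component beta-tectorin, was at 24.4, 27.5 and 29.02 CPM in wild-type and at 69.0, 65.5 and 78.3 CPM in Clrn2-/- libraries (1.39 ± 0.12, adjusted p = 2.7e-06). Otog, otogelin, was at 107, 128 and 119 CPM against 198, 172 and 227 CPM (0.75 ± 0.08), and the related Otogl at 53.3, 50.5 and 59.6 CPM against 84.3, 84.9 and 106 CPM (0.75 ± 0.08). Otoa, which encodes otoancorin, the protein that fastens the membrane to the spiral limbus, was at 138, 128 and 162 CPM against 243, 204 and 247 CPM (0.70 ± 0.08). Ceacam16 rose from 1303, 1267 and 1475 CPM to 2104, 1685 and 2163 CPM (0.56), just below 1.5-fold. For all 5 genes the libraries of both genotypes did not overlap. Tecta, alpha-tectorin, was low and overlapping, at 2.89, 4.57 and 1.72 CPM against 2.10, 2.42 and 2.75 CPM, and the collagen genes Col11a2 (0.11) and Col2a1 (0.08) did not pass.

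On the hair cell list of 28 tested members 9 rose, 1 fell and 18 did not pass, with a median log2 fold change of 0.21. With a library left out the median ranged from 0.13 (without Clrn2-/- replicate 3) to 0.26 (without Clrn2-/- replicate 2). The summed level overlapped, at 1551 to 1700 CPM in wild-type and 1584 to 1761 CPM in Clrn2-/- libraries. The 7 over-expressed members were Lmod3, Ocm, Rasd2, Tmc1, Chrna9, Strc and Loxhd1. Ocm, oncomodulin, a calcium buffer of outer hair cells, was at 62.7, 62.5 and 76.2 CPM against 122.99, 102 and 134 CPM (0.83 ± 0.12, adjusted p = 0.00025). Chrna9, a subunit of the receptor for efferent acetylcholine, was at 3.85, 4.30 and 3.998 CPM against 7.18, 5.66 and 7.81 CPM (0.77 ± 0.12). Slc26a5, the gene of the motor protein prestin, rose from 16.7, 17.1 and 17.9 CPM to 24.02, 19.96 and 30.8 CPM (0.53). Lmod3, an actin filament nucleator, was at 1.52, 1.67 and 1.90 CPM against 5.51, 4.32 and 5.99 CPM (1.63 ± 0.19). In these genes Clrn2-/- replicate 2 was the lowest and replicate 3 the highest of the Clrn2-/- libraries.

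Otof, the calcium sensor of inner hair cell release, overlapped at 88.0, 100.3 and 110 CPM against 101, 88.9 and 123.4 CPM (0.07). Slc17a8, the vesicular glutamate transporter of inner hair cells, was at 27.3, 27.9 and 32.7 CPM against 35.0, 29.9 and 38.2 CPM (0.23, adjusted p = 0.098). Myo7a (-0.08), Myo6 (-0.00) and Pou4f3 (0.25), which mark both types, did not pass. The calls of Strc, which encodes stereocilin, and of Loxhd1 rested on Clrn2-/- replicate 3. Without it their log2 fold changes were 0.56 for Strc and 0.48 for Loxhd1, and Loxhd1 also fell below 1.5-fold without wild-type replicate 1 (0.50) or 3 (0.56).

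**Figure D4:**
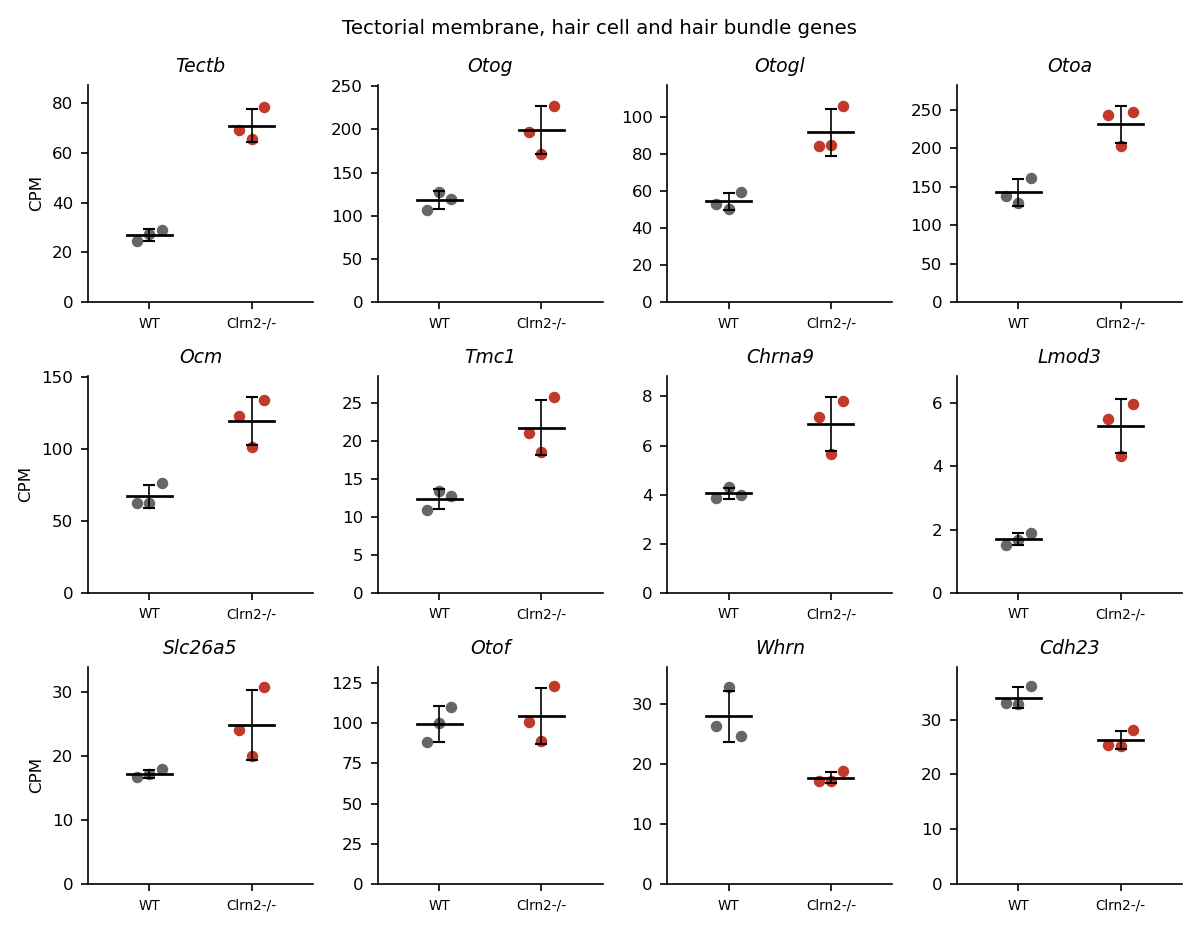
Level in CPM (vertical axis, from 0) of 12 genes of the tectorial membrane, hair cells and hair bundle in wild-type (WT) and Clrn2-/- mice, with 1 point per library and the mean ± SD (n = 3) in black. Tectb, Otog, Otogl, Otoa, Ocm, Tmc1, Chrna9, Lmod3 and Slc26a5 are higher in every Clrn2-/- library, Otof overlaps, and Whrn and Cdh23 are lower.

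Genes of the mechanotransduction complex moved in both directions. Of 19 members 6 rose and 2 fell, with a median log2 fold change of 0.05. Tmc1, which encodes the pore-forming subunit of the channel in mature hair cells, was at 10.96, 13.4 and 12.8 CPM against 21.1, 18.5 and 25.8 CPM (0.81 ± 0.11, adjusted p = 0.00020). The tip link, which pulls the channel open, is made of protocadherin-15 and cadherin-23. Pcdh15 rose from 11.2, 11.4 and 12.2 CPM to 15.7, 13.6 and 17.3 CPM (0.42), and Cdh23 fell from 33.0, 32.8 and 36.2 CPM to 25.4, 25.2 and 28.1 CPM (-0.38), both without overlap. The channel partner genes Tmie (0.22), Lhfpl5 (-0.05) and Cib2 (-0.04) did not pass.

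In the stereocilia list, 12 of 41 members rose and 4 fell (median 0.09, but 0.029 without Clrn2-/- replicate 3 and 0.046 without wild-type replicate 1). Espn, an actin bundler, rose from 22.6, 27.4 and 25.6 CPM to 32.5, 29.7 and 38.1 CPM (0.41). Whrn, which encodes the scaffold whirlin of the stereocilia tips and ankle links, was under-expressed at 26.4, 32.7 and 24.7 CPM against 17.2, 17.1 and 18.8 CPM (-0.66 ± 0.09), and its ankle link partner Pdzd7 fell by 0.43 on the log2 scale. Without wild-type replicate 2 the value of Whrn was -0.52, below 1.5-fold. Baiap2l2, of the row-2 stereocilia tips, was at 3.26, 3.94 and 4.15 CPM against 2.501, 1.71 and 2.81 CPM (-0.69), and was lost without Clrn2-/- replicate 2 (-0.51). Xirp2 (0.71) and Myo1h (0.70) were over-expressed, both below 8 CPM. Xirp2 was lost without Clrn2-/- replicate 2 (0.79) or 3 (0.54) or wild-type replicate 1 (0.51) or 3 (0.58), and Myo1h without Clrn2-/- replicate 3 (0.57) or wild-type replicate 1 (0.62).

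Supporting cell genes were higher for the greater part of those that passed, with 17 of 40 members that rose, 2 that fell and a median log2 fold change of 0.18. Lgr6, a receptor that strengthens Wnt signalling, was at 4.33, 4.602 and 4.25 CPM against 7.18, 7.71 and 9.58 CPM (0.89 ± 0.12). Plet1 was at 2.08, 1.62 and 1.21 CPM against 4.52, 4.01 and 4.38 CPM (1.40 ± 0.17). Fgfr3 (0.45), Jag1 (0.38), Sox9 (0.34) and Gata3 (0.33) rose, and Sox2 (0.17, adjusted p = 0.051) did not pass. Opposite to these, Prox1, a transcription factor of supporting cells, fell from 102, 101 and 109 CPM to 78.7, 73.3 and 75.8 CPM (-0.46), and Gjb6, connexin 30 of their gap junctions, from 377, 366 and 360.1 CPM to 308, 300.1 and 313 CPM (-0.26). Slitrk6 and Id1 were over-expressed at 0.64 and 0.59, and fell below 1.5-fold without Clrn2-/- replicate 3 (0.50 for Slitrk6 and 0.53 for Id1), Id1 also without wild-type replicate 3 (0.58).

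Of 11 tested keratin genes 4 rose, 0 fell and 7 did not pass. Krt8 was at 8.09, 7.18 and 6.98 CPM against 15.2, 14.2 and 16.1 CPM (1.03 ± 0.07, adjusted p = 2.5e-07), and its partner in simple epithelia, Krt18, at 8.51, 9.26 and 7.84 CPM against 13.4, 13.5 and 14.6 CPM (0.69 ± 0.07). Krt19 rose by 0.52 on the log2 scale, and Krt90 was over-expressed (2.16) but lost its call without Clrn2-/- replicate 3 (1.72) or wild-type replicate 2 (2.01) or 3 (1.95). Of 9 genes of the cornified envelope and stratified epithelium 4 rose and 0 fell. Sprr1a and Lypd3 were over-expressed at up to 3.06 CPM, as was Cdsn, which is also on the stress response list, and S100a6 rose (0.50). Lor (0.35) and Sbsn (-0.21) were among the 5 that did not pass.

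Part of the genes of the ribbon synapse and of synaptic vesicle release were slightly lower. Of 39 tested members 3 rose, 13 fell and 23 did not pass. None was over- or under-expressed, and the median log2 fold change was -0.11. Pclo, a scaffold of the active zone, fell from 63.9, 66.9 and 61.7 CPM to 51.7, 55.1 and 49.1 CPM (-0.30), and Snap25, of the fusion machinery, from 2528, 2537 and 2801 CPM to 2380, 2294 and 2185 CPM (-0.20). Cacna1d, the gene of the hair cell calcium channel Cav1.3, rose from 58.0, 55.4 and 56.5 CPM to 79.6, 75.4 and 82.4 CPM (0.48, adjusted p = 1.2e-05). Ctbp2, whose long product RIBEYE builds the ribbon, was at 27.1, 26.5 and 27.3 CPM against 29.96, 29.5 and 29.5 CPM (0.14, adjusted p = 0.093).

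Among glutamate receptors and their partners 10 of 54 members fell and 1 rose (median -0.14). Grin2d, an NMDA receptor subunit, was under-expressed at 11.4, 12.9 and 12.6 CPM against 6.62, 5.85 and 5.37 CPM (-1.05 ± 0.10, adjusted p = 1.2e-05). Grm4, a metabotropic receptor, was at 5.53, 6.96 and 5.06 CPM against 3.44, 3.09 and 2.56 CPM (-0.95 ± 0.18). Gria2, the AMPA receptor subunit that keeps calcium out, was at 55.7, 68.3 and 66.0 CPM against 38.9, 43.3 and 44.2 CPM (-0.59 ± 0.09), exactly at the fold limit. It fell below the limit without Clrn2-/- replicate 1 (-0.53), wild-type replicate 2 (-0.53) or 3 (-0.56), and with library size alone (-0.55), the 2 genotypes alone (-0.581), unstranded counts (-0.583) or the replicate block (-0.583). Its partners Gria3 (-0.15) and Gria4 (-0.08) did not pass, and the postsynaptic scaffold gene Shank2 rose (0.54).

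Synaptic adhesion and axon guidance genes went both ways, with 10 of 89 members that rose and 15 that fell (median -0.05). Sema3e, a secreted guidance cue, was at 225, 209 and 249.9 CPM in wild-type and at 113, 107 and 103 CPM in Clrn2-/- libraries (-1.08 ± 0.07, adjusted p = 1.2e-07). C1ql1, of the C1q family of synapse organisers, was at 8.46, 9.40 and 7.62 CPM against 3.98, 3.76 and 4.66 CPM (-1.03 ± 0.14). Neither overlapped. Of 27 neuronal markers 8 fell and 1 rose, and Snap25 is among them as well as on the ribbon synapse list. The median was -0.11, and -0.15 to -0.068 with a library left out, nearest to 0 without Clrn2-/- replicate 3. The summed level of the markers was 15753 to 17263 CPM in wild-type and 13817 to 15801 CPM in Clrn2-/- libraries. Ina, a neurofilament protein, fell from 390.3, 374 and 401 CPM to 304, 265 and 246 CPM (-0.51), whereas Tubb3 (0.05) and Rbfox3 (-0.01) did not pass. The part of a lower neuronal share in the synaptic and channel results was not tested. Prph, peripherin of type II neurons, which contact outer hair cells, was over-expressed at 6.15, 3.01 and 4.96 CPM against 8.79, 8.97 and 8.85 CPM (0.91 ± 0.17). Prph is also on the list of spiral ganglion neuron subtypes, of which 5 of 20 members rose and 6 fell (median -0.05). Kcnip2 was the other over-expressed member of that list, and Ttn the only under-expressed member.

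Potassium channel genes included 5 over-expressed and 7 under-expressed members of 85 tested. In all 9 rose and 16 fell, with a median log2 fold change of -0.10. Under-expressed were Kcnd2, the A-type channel Kv4.2, at 8.40, 7.97 and 7.87 CPM against 4.09, 4.53 and 4.66 CPM (-0.87 ± 0.10), and Kcnj3, the G protein-gated channel GIRK1, at 20.7, 23.7 and 22.4 CPM against 11.6, 13.8 and 11.97 CPM (-0.84 ± 0.09). Kcnk10, the leak channel TREK-2, was at 8.54, 8.49 and 10.1 CPM against 4.46, 4.90 and 4.64 CPM (-0.96 ± 0.12). Lrrc52, an auxiliary subunit of large-conductance channels, was at 4.92, 4.33 and 5.59 CPM against 2.07, 1.59 and 1.77 CPM (-1.45 ± 0.21). The auxiliary subunits of A-type channels split: Kcnip3 was at 26.5, 28.2 and 26.7 CPM against 17.1, 15.9 and 15.6 CPM (-0.74), and Kcnip2 at 34.5, 34.5 and 42.5 CPM against 83.9, 79.0 and 77.9 CPM (1.11 ± 0.07, adjusted p = 1.2e-07). Kcnj14, an inward rectifier, was at 3.29, 3.26 and 4.10 CPM against 6.75, 7.32 and 6.97 CPM (0.98 ± 0.12), and Kcna10 (0.75) and Kcnj15 (0.74) were also over-expressed. Kcnj13 (0.67) was lost without wild-type replicate 3 (0.49) and with unstranded counts (0.50). The last under-expressed entries were Kcns3 and Kcnq1ot1, a noncoding RNA that the family pattern also takes in.

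**Figure D5:**
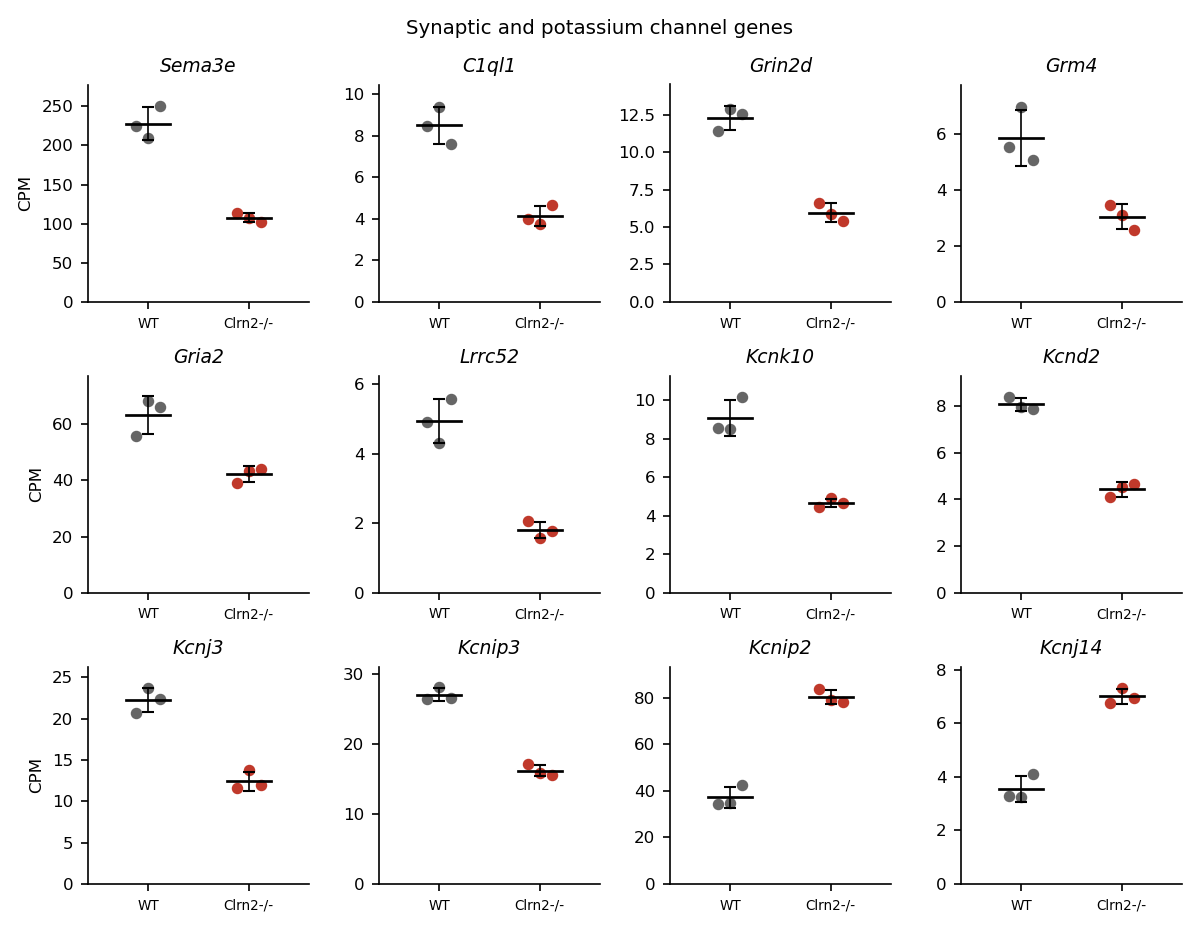
Level in CPM (vertical axis, from 0) of 12 synaptic and potassium channel genes in wild-type (WT) and Clrn2-/- mice, with 1 point per library and the mean ± SD (n = 3) in black. Every Clrn2-/- library lies below the wild-type libraries for the first 10 genes and above them for Kcnip2 and Kcnj14.

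Calcium channels, pumps and exchangers had 7 of 69 members that rose and 14 that fell (median -0.05). Besides Ryr1, Cacna1h, the T-type channel Cav3.2, was called, at 11.5, 10.2 and 9.64 CPM against 6.67, 6.15 and 6.55 CPM (-0.69 ± 0.12). Trpc5 was under-expressed near the lower limit of detection, at 1.12 CPM or less, and was lost without Clrn2-/- replicate 1 (-1.06) or 3 (-1.57) or wild-type replicate 1 (-1.44) or 2 (-0.98).

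Small decreases were found in part of the genes of energy metabolism. In oxidative phosphorylation 0 of 108 members rose and 21 fell, with a median log2 fold change of -0.066, which was -0.035 without wild-type replicate 3 and -0.033 with library size alone. Cox7b and Ndufab1, subunits of complexes IV and I, fell by 0.32 and 0.30, and Cox8b, an isoform known from muscle and brown fat, was the sole under-expressed member, at 18.3, 21.0 and 20.8 CPM against 8.04, 6.43 and 5.62 CPM (-1.58 ± 0.14, adjusted p = 5.1e-06). In glycolysis and glucose transport 10 of 39 members fell and 1 rose (median -0.14). Pygm, muscle glycogen phosphorylase, was at 74.6, 72.3 and 67.4 CPM against 42.1, 42.6 and 40.3 CPM (-0.78 ± 0.07), and Eno1, enolase, fell from 507, 501 and 509 CPM to 390.4, 367 and 347 CPM (-0.46). Pgam2 was under-expressed at 2.25 CPM or less, and its call was lost with unstranded counts (-0.56). All 3 under-expressed genes of both energy lists, Cox8b, Pygm and Pgam2, are also on the list of sarcomere and muscle genes, of which 3 of 35 rose and 7 fell. Ttn and Myot (-1.24) were its other under-expressed members, Ryr1 was over-expressed, and the skeletal muscle genes Acta1, Ckm and Myh4, below 1 CPM in every library, did not pass. Cytosolic ribosomal protein genes went the other way, with 29 of 85 that rose and 4 that fell, none by 1.5-fold (median 0.10).

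Acute-phase, complement and cytokine genes had a median log2 fold change of 0.50 over 28 members, of which 8 rose and 1 fell. Most were scarce. Summed over the list, the level was instead lower in Clrn2-/- mice and did not overlap. It was 2342 to 2526 CPM in wild-type and 2215 to 2247 CPM in Clrn2-/- libraries. Saa1, serum amyloid A, was at 0.00, 0.0548 and 0.101 CPM against 0.377, 1.47 and 1.63 CPM (4.33 ± 0.67), and its near-identical neighbour Saa2 moved in the same direction, so that reads may be split between both. Tnfrsf12a, the receptor Fn14, was clearly expressed, at 22.1, 24.6 and 27.7 CPM against 49.0, 46.4 and 52.9 CPM (0.99 ± 0.07, adjusted p = 6.3e-07). Ptx3, a soluble pattern receptor, was at 1.49, 1.45 and 1.52 CPM against 2.88, 2.85 and 2.78 CPM (0.93 ± 0.16). Ccl7 was lost without Clrn2-/- replicate 2 (1.76) or wild-type replicate 1 (2.08), and Cxcl14, the only under-expressed member (-0.59), without Clrn2-/- replicate 1 (-0.44) or wild-type replicate 2 (-0.43), and also with library size alone (-0.56), the 2 genotypes alone (-0.588) and the replicate block (-0.584). Macrophage markers had 2 of 28 members that rose (7.14%), Aif1 (0.67) and Lyz2 (0.40), while Csf1r (-0.02), Cx3cr1 (0.15) and Ptprc (0.05) did not pass. Among 62 interferon-stimulated genes 5 rose (8.06%) and 1 fell, none by 1.5-fold. Both shares that rose lie near the 7.14% of all tested genes.

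Secreted growth factors included Fgf8, which inner hair cells use to instruct pillar cells, at 0.0281, 0.00 and 0.0759 CPM in wild-type and at 0.941, 0.765 and 1.15 CPM in Clrn2-/- libraries (4.61 ± 0.53, adjusted p = 3.8e-05). Gdnf, a neurotrophic factor, was at 2.08, 2.52 and 1.64 CPM against 3.23, 3.24 and 4.16 CPM (0.77). Gdf6, a bone morphogenetic protein, was at 25.8, 24.5 and 25.4 CPM against 61.2, 40.9 and 66.0 CPM (1.15 ± 0.14), and Inhbb, the activin beta-B subunit, at 3.12, 3.97 and 3.31 CPM against 0.995, 1.74 and 1.49 CPM (-1.31 ± 0.25). Every Clrn2-/- library stood apart from wild-type libraries for these genes.

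Among 18 fibroblast and spiral ligament markers 2 rose, 4 fell and 12 did not pass, and 10 had a log2 fold change above 0. The 3 under-expressed members were Otos, Ucma and Coch. Otos, otospiralin of the fibrocytes of the spiral ligament and limbus, was at 1637, 1455 and 2205 CPM against 975, 681 and 770.1 CPM (-1.13 ± 0.15, adjusted p = 0.00012). Coch, cochlin of the same cells, was at 5126, 4743 and 6277 CPM against 3223, 3411 and 3704 CPM (-0.64 ± 0.10), and fell below 1.5-fold without wild-type replicate 3 (-0.52). The summed level of the 18 markers, to which Coch and Otos gave the most, was 9129 to 11014 CPM in wild-type and 6872 to 7309 CPM in Clrn2-/- libraries. Of 11 red blood cell genes 5 fell and 0 rose (median -0.63), with a summed level of 769 to 1232 CPM against 491 to 725 CPM. Markers of endothelium and pericytes, the cells of blood vessels, moved with them: 5 of 24 fell, 1 rose and 2 had a log2 fold change above 0. The smooth muscle genes Myh11 (-0.67) and Acta2 (-0.60) were under-expressed, but Myh11 was lost without wild-type replicate 2 (-0.56) and Acta2 without Clrn2-/- replicate 1 (-0.58) or 3 (-0.57) or wild-type replicate 1 (-0.50) or 2 (-0.50), with limma-voom (-0.57) and with library size alone (-0.57). Hba-a2 was at 43.2, 37.7 and 27.8 CPM against 10.1, 18.1 and 12.7 CPM (-1.42), and shares reads with the near-identical Hba-a1. The calls of Hba-a1, Hbb-bs, Hbb-bt and Alas2 were each lost without wild-type replicate 1, at -0.49, -0.40, -0.51 and -0.56. Those of Hba-a1 (-0.57), Hbb-bs (-0.47) and Hbb-bt (-0.44) were also lost without Clrn2-/- replicate 1, those of Hbb-bs (-0.67) and Hbb-bt (-0.59) without Clrn2-/- replicate 3, and that of Hbb-bt without wild-type replicate 2 (-0.58). The share of ligament tissue, vessels and blood in the dissected pieces and its part in these results were not tested.

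Direct tests between the mutants were made for the named genes. These tests share the Clrn2-/- libraries with the comparison above, and over all tested genes 2.34% were higher and 2.4% lower in Clrn2-/- than in Clrn1-/- mice. Of 125 named genes called against wild-type mice, 92 were not called between Clrn2-/- and Clrn1-/- mice. Among stress genes, Fgf21 was higher in Clrn2-/- than in Clrn1-/- mice by 3.82 ± 0.31 on the log2 scale (adjusted p = 5.6e-07), with means of 5.87 and 0.404 CPM. Chac1 was higher by 1.18, Atf3 by 0.97, Sdf2l1 by 0.88 and Hspa5 by 0.61. Kcnj14 was higher by 2.56, as Clrn1-/- mice averaged 1.19 CPM, and Prph by 1.14. Ttn was lower in Clrn2-/- than in Clrn1-/- mice (-0.85). Lrrc52 (1.49) and 5 red blood cell genes (0.70 for Hba-a1 to 0.89 for Alas2) were under-expressed in Clrn2-/- mice but higher than in Clrn1-/- mice. Tectb (0.27 ± 0.11, adjusted p = 0.11), Krt8 (0.06 ± 0.06) and Sema3e (-0.00067 ± 0.07) did not pass this test, which does not show that they are alike.

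In Clrn1-/-Clrn2-/- mice, which lack both clarins, 3.67% of all tested genes were higher and 1.43% lower than in Clrn2-/- mice, and 86 of the 125 named genes were not called. Krt8 was higher in the double mutants by 1.87, Krt18 by 1.44, Plet1 by 1.44, Lgr6 by 1.42 and Otoa by 0.90, all of them genes already over-expressed in Clrn2-/- mice. Fgf21 (-1.004) and Chac1 (-0.61) were lower in the double mutants than in Clrn2-/- mice, with means of 2.95 and 7.0004 CPM.

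Around Clrn2, 12 genes were tested within 1 Mb and 0 called, and within 10 Mb 5 of 106 (4.72%), against 2.66% of all genes. Chromosome 5 as a whole had 41 called genes among 1264 (3.24%), and other autosomes and the X chromosome ranged from 1.84% on chromosome 16 to 3.53% on chromosome 19. The nearest were the lincRNA gene Gm43699 (0.96) at 2.07 Mb and C130083M11Rik (1.52) at 6.74 Mb, both below 1 CPM. C130083M11Rik was lost without Clrn2-/- replicate 1 (1.38) or wild-type replicate 2 (1.20) or 3 (1.59) and with unstranded counts (0.15). Lgi2, whose product is a secreted protein linked to epilepsy, lies 7.07 Mb away and was at 249, 236 and 266 CPM against 161, 140.03 and 135 CPM (-0.78 ± 0.06, adjusted p = 1.1e-06). Drd5, Gm42858 and Msantd1 followed at 7.13, 7.32 and 10.5 Mb. Drd5 (0.81) was lost without Clrn2-/- replicate 1 (0.74) or 2 (0.78) or wild-type replicate 2 (0.68) or 3 (0.81), and with unstranded counts (0.57), DESeq2 (adjusted p = 0.059) and the 2 genotypes alone (adjusted p = 0.070).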

How the data were processed

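RNA from 6 organ of Corti samples, 3 Clrn2-/- and 3 wild-type, was analysed, and 6 further mutant samples shared the fit. The deposited values are counts per gene, which the authors made with STAR on GRCm38.p6 (submitters' processing notes) and Gencode, from stranded paired reads of polyadenylated RNA, without normalization. Reverse-strand counts, 95.2% to 95.6% of all stranded counts in a library, were used. The 4 totals of unassigned reads, 13.5% to 15.8% of a library, were left out.

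Genes that passed filterByExpr (minimum count 10) were fitted over 12 libraries with genotype alone in edgeR 4.0.16 (R 4.3.3), after TMM scaling, by the quasi-likelihood test, and p-values were adjusted over 19052 genes by the Benjamini-Hochberg method. Standard errors derive from the test statistic. The fit was tested on simulated data. A list is described by counts and its median, without a test. Coordinates came from Gencode M21 (53244 of 55348 symbols matched), a release that precedes the authors' annotation, and promoters from RefSeq.

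The comparison, the lists and the rule for named genes were chosen with earlier results of these data known. Named genes are Clrn2, Clrn1, the 12 largest increases and decreases without overlap and with a mean of at least 1 CPM in a group, up to 5 called members per list and direction, and the 6 called genes nearest to Clrn2. Further list members were named as defining, or were chosen after their values were seen. Alternatives were limma-voom (limma 3.58.1), DESeq2 1.42.0, library size alone, other filters and gene types, the 6 libraries alone, a replicate block, unstranded counts, no minimum fold and leaving out each library in turn. Counting error alone is small for well-expressed genes at 32513371 counts or more per library, but not for scarce genes. A mean of at least 1 CPM over the 6 libraries was reached by 158 of 236 over-expressed and 194 of 271 under-expressed genes.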

Additional observations from a re-analysis of the deposited data

How the results depend on the processing

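Over-expressed genes numbered 163 to 248 and under-expressed genes 206 to 334 when libraries were left out in turn, lowest for both without Clrn2-/- replicate 3. Without a fold minimum they numbered 1360 and 1347, and all other alternatives stayed within 1.5 times of 236 and 271, DESeq2 lowest (177 and 205) and no filter on low counts highest (269 and 363). Of the 507 called genes, 373 were among the 382 of DESeq2 and 479 among the 501 of limma-voom. Library size alone moved the median of all genes to 0.03. Of 125 named called genes, 87 kept their call under every alternative that tested them, 38 lost it under at least 1, and none changed direction. Beside the genes for which it is given above, calls were lost with the 2 genotypes alone for Baiap2l2, C130083M11Rik, Cdsn, Hbb-bs, Pmaip1, Trpc5, Tyrp1 and Xirp2, with limma-voom for Gdf15, Cdc20 and Tyrp1, with DESeq2 for Hbb-bs and Tyrp1, with library size alone for Hbb-bt and Pcp4 and with unstranded counts for Xirp2. Cdc20 was also lost with the replicate block, and Tyrp1 without a filter on low counts and with the FPKM filter. The replicate numbers have no stated meaning, and same-numbered Clrn2-/- and wild-type libraries deviated together with correlations of -0.19, 0.28 and -0.09, so they share only a number, and replicate 2 alone among the Clrn2-/- libraries correlated best with its own number. With the replicate block 225 genes were over-expressed and 262 under-expressed.

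Chromosome 5 had 2.14% called genes with DESeq2, 15.2% without a fold minimum and 2.53% to 3.16% with a library left out. List medians moved by more than the spread of the Clrn2-/- libraries as follows. For the BCL2 family the median was 0.25 with library size alone, 0.26 without a filter and with the FPKM filter, 0.19 with the 2 genotypes alone and 0.15 to 0.27 with a library left out. For calcium channels it was -0.013 with library size alone, -0.071 with unstranded counts and -0.082 to -0.019 with a library left out. For mechanotransduction it was 0.083 with library size alone, 0.0093 with the 2 genotypes alone and -0.011 (without Clrn2-/- replicate 1) to 0.11. Ribosomal proteins were at 0.13 and synaptic adhesion at -0.021 with library size alone, and glutamate receptors at -0.10 with the FPKM filter. With a library left out the medians ranged from 0.38 to 0.68 for acute-phase genes, 0.087 to 0.12 for ribosomal proteins, -0.15 to -0.095 for glutamate receptors, -0.18 to -0.071 for the ribbon synapse, 0.22 to 0.28 for the stress response, -0.12 to -0.043 for potassium channels, -0.88 to -0.36 for red blood cells, 0.13 to 0.23 for supporting cells, -0.091 to -0.0070 for synaptic adhesion and 0.19 to 0.28 for the tectorial membrane. The cause of these moves was not tested.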

Other observations

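Some other gene groups are given with their counts, to be read beside the 7.14% of all tested genes that rose and the 7.07% that fell. Of 50 Wnt pathway genes 9 rose and 0 fell, with Lgr6 (0.89), Wnt7a (0.52) and Wnt7b (0.46) foremost. Of 51 junction genes 10 rose and 4 fell, among them the claudin genes Cldn7 (0.73, over-expressed) and Cldn4 (0.51) and the cadherin gene Cdh3 (-0.73, under-expressed). Of 13 markers of the outer sulcus and Reissner's membrane 4 rose and 0 fell: Fxyd2, P2rx2 (0.44), Epyc (0.39) and Vmo1 (0.38). Of 24 circadian clock genes 3 rose (12.5%) and 4 fell (16.7%), and of 26 Notch pathway genes 3 rose and 3 fell (11.5% each). Of 25 cholesterol synthesis genes 1 rose (4%) and 5 fell (20%). No gene of these lists was over- or under-expressed. Among 22 Schwann cell and myelin genes 3 rose and 0 fell. Gldn, which encodes gliomedin, the protein that gathers sodium channels at nodes of Ranvier, was over-expressed at 149.8, 142 and 169 CPM in wild-type and at 259, 241 and 254 CPM in Clrn2-/- libraries (log2 fold change 0.71 ± 0.06, edgeR adjusted p = 3.7e-06).

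Fxyd2, the gamma subunit of the sodium pump, was at 10.7, 9.04 and 12.9 CPM in wild-type and at 20.5, 16.8 and 18.8 CPM in Clrn2-/- libraries (0.78 ± 0.11), and Clrn1-/- mice averaged 7.41 CPM. Col24a1 was the only under-expressed member of 41 tested collagen genes, at 15.2, 15.5 and 13.1 CPM against 7.42, 8.51 and 9.64 CPM (-0.77 ± 0.09), while 8 collagen genes rose. Aim2, a DNA sensor gene of the Ifi200 family, was at 1.43, 1.15 and 0.835 CPM against 2.74, 2.75 and 3.03 CPM (1.33 ± 0.19). Ifi202b, a gene of the same family whose expression is known to differ between mouse strains, had 0 counts in every wild-type library and 4, 1 and 3 counts in the Clrn2-/- libraries, too few for a fold change.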
